A study of Mus musculus with 9 samples.

Results

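Expression of 10 imprinted genes that regulate growth was followed in whole lenses of newborn mice, 10 of 47729 genes in the tables, chosen by symbol as imprinted growth regulators. Genomic imprinting silences a gene on the chromosome inherited from 1 parent, so that only the maternal or the paternal copy is transcribed. Imprinted genes lie in domains whose members share control elements, and many of them set the rate of fetal growth. The growth factor gene *Igf2*, *Dlk1*, *Peg3*, *Plagl1*, *Mest* and *Ndn* are known to be expressed from the paternal chromosome in most tissues, and *H19*, *Igf2r*, *Meg3* and *Grb10* from the maternal chromosome. The lens grows from a monolayer of dividing epithelial cells, which supply the elongated, crystallin-filled fiber cells that make up most of its mass, and insulin-like growth factors are long known to act on both cell types.

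RNA-Seq covered 3 lines with 3 pools each, and each pool held 6 lenses from 3 newborn mice (postnatal day 0). The *FVB/N* mice carried no transgene, and the *P0-3.9GFPCre* and *Le-Cre* mice were hemizygous for a CRE transgene on the same *FVB/N* background. Both transgenes are driven by *Pax6* P0 promoter fragments and are active in the lens epithelium, with a GFP-CRE fusion protein in *P0-3.9GFPCre* and separate CRE and GFP in *Le-Cre*, which descends from 1 founder. All lines thus shared the mutation behind the retinal degeneration for which *FVB/N* mice are known, and which the paper describes in older mice. Because every mouse had the same inbred background, the reads could not be assigned to a parental chromosome, and all values below are the sum of both copies. The comparisons addressed whether carrying either transgene was accompanied by altered expression in lenses, which develop normally in hemizygous mice of both lines on this background.

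Total expected counts (RSEM's estimate of the reads from each gene) lay between 20670968 and 28098059 per pool, and crystallin genes took 39.1% to 43.0% of them. Markers of fiber cells summed to between 162005 and 184538 TPM (transcript abundance scaled for gene length and library size) and those of the lens epithelium to between 204 and 252 TPM, with none of the 10 or 6 genes at 0 in any pool, so the tissue label held. Summed markers of other cells overlapped between lines, except for corneal epithelium. Near the floor, these were at 0.12 to 0.18 TPM in *Le-Cre* and 0.06 to 0.09 TPM in *P0-3.9GFPCre*. Blood markers, at 85.2 to 262.5 TPM, reached the range of the lens epithelium markers, and endothelium markers were at 43.8 to 65.3 TPM. The rest were lower, at 7.77 to 16.6 TPM for pigmented and ciliary epithelium, 2.14 to 7.39 TPM for neural retina, 2.53 to 4.56 TPM for mesenchyme, 0.93 to 2.79 TPM for macrophages, 0.02 to 0.37 TPM for skeletal muscle and 0 to 0.26 TPM for corneal epithelium. Counts on 4 Y-linked genes differed between lines, at 121 to 193 CPM (normalized counts scaled to library size) in *FVB/N*, 1.66 to 135 in *P0-3.9GFPCre* and 0.602 to 74.2 in *Le-Cre*, so the sex of the pooled mice and the line were partly confounded. In whole lenses, fewer cells of a type and less RNA per cell cannot be told apart.

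Coordinates are those of GRCm38. *H19* (chr7:142575529-142578143, minus strand) and *Igf2* (chr7:142650766-142666816, minus strand) are neighbors, and so are *Dlk1* (chr12:109452823-109463336, plus strand) and *Meg3* (chr12:109541001-109571726, plus strand). *Mest* lies at chr6:30723547-30748465, *Peg3* at chr7:6703892-6730431, *Ndn* at chr7:62346569-62350262, *Plagl1* at chr10:13060504-13131694, *Grb10* at chr11:11930508-12038683 and *Igf2r* at chr17:12682406-12769664. *H19* and *Meg3* are long noncoding RNAs and the other 8 genes are protein-coding. Several of these transcripts also carry microRNAs, which are printed here because they are the part of each host that acts on other messengers. The mature forms are from RefSeq (GRCm38.p6), with the seed (bases 2 to 8) in capitals, hosted by *H19* (miR-675), *Igf2* (miR-483), *Mest* (miR-335) and *Meg3* (miR-770 and miR-1906).
mmu-miR-675-5p: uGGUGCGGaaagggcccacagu
mmu-miR-675-3p: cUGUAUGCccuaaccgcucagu
mmu-miR-483-5p: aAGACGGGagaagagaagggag
mmu-miR-483-3p: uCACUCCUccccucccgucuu
mmu-miR-335-5p: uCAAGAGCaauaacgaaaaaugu
mmu-miR-335-3p: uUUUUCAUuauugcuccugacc
mmu-miR-770-5p: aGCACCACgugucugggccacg
mmu-miR-770-3p: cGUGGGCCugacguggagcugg
mmu-miR-1906: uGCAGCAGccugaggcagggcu
No 2 of these 9 seeds are the same. The separate entries for these microRNA genes held 0 expected counts in every pool, and a library of polyadenylated RNA read over 51 bases does not measure mature microRNAs, so only the host transcripts were quantified.

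The *Dlk1* and *Meg3* start regions are printed as well, since their transcripts lay at opposite ends of the range of levels within 1 domain. Each spans 250 bases before to 50 bases after the RefSeq start on GRCm38.p6, plus strand, with CG dinucleotides, the sites at which imprints are written as DNA methylation, in capitals. The *Dlk1* region is chr12:109452573-109452872 and the *Meg3* region chr12:109540746-109541045.
Dlk1 start region: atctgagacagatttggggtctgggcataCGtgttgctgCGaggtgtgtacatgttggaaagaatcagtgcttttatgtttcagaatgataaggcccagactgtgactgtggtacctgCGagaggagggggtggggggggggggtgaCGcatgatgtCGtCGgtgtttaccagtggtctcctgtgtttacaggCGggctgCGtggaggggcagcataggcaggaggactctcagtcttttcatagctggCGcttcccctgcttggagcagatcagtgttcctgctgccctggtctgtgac
Meg3 start region: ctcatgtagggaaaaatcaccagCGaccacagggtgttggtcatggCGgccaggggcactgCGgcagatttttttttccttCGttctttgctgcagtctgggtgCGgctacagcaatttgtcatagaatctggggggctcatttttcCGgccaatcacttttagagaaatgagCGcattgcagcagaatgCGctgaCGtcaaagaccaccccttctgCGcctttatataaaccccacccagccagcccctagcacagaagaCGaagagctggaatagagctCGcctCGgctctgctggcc
*Dlk1* held 9 CG dinucleotides and *Meg3* held 13, and 45.8% and 37.9% of all promoters in the RefSeq table held at least as many in a window of the same length. The letters TATAAA, searched on both strands, occurred 2 times in the *Meg3* window in overlapping positions and 0 times in the *Dlk1* window, against 13.6% of all promoters with at least 1 match. These are matches of letters only, and neither methylation nor initiation was measured here.

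Levels per length spread over almost 3 orders of magnitude. *Meg3* was the most abundant at a mean of 300.2 TPM over the 9 pools, which placed it at rank 212 of all genes, and *H19* followed at 247 TPM (rank 274). *Mest* at 74.8 TPM, *Igf2* at 70.7 TPM, *Igf2r* at 48.6 TPM, *Peg3* at 34.6 TPM, *Grb10* at 24.5 TPM and *Ndn* at 19.8 TPM formed a middle group. *Plagl1* was low at 3.83 TPM, and *Dlk1* was barely detected at 0.429 TPM. Neighbors in this order overlapped in range except at 3 steps, from *H19* to *Mest*, from *Ndn* to *Plagl1* and from *Plagl1* to *Dlk1*. Within a pool the order was firmer, since *Meg3* exceeded *H19*, *Igf2* exceeded *Igf2r* and *Peg3* exceeded *Grb10* in 9 of 9 pools, while *Mest* exceeded *Igf2* in 8 of 9.

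**Figure D1:**
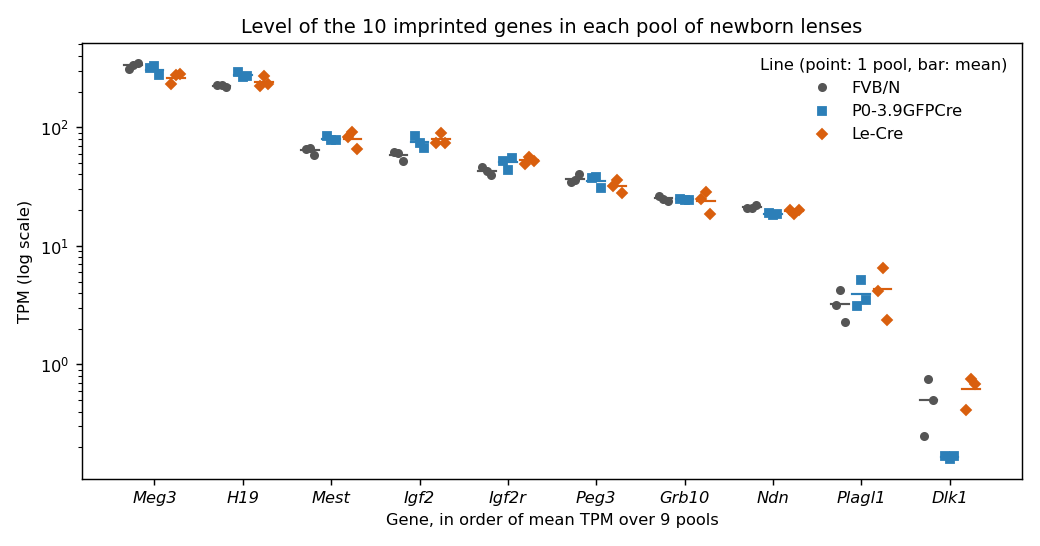
TPM of each gene in each pool on a log axis, with 3 points per line and a bar at the line's mean. *Meg3* and *H19* lie between 217 and 347 TPM in every pool, *Dlk1* stays at or below 0.76 TPM, and the lines differ far less than the genes do.

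All 10 genes passed the filter on low counts and were tested with the 15557 genes of the whole table. None was called in any comparison. A call required a change of 1.5-fold or more and an adjusted p no higher than 0.05 (quasi-likelihood test of edgeR, Benjamini-Hochberg over all tested genes). In *Le-Cre* against *FVB/N*, 0.0643% of all tested genes were called (10 genes). In the other comparisons, *P0-3.9GFPCre* against *FVB/N* and *Le-Cre* against *P0-3.9GFPCre*, 0% were called. At an unadjusted p under 0.05 stood 5 of the 10 genes in *Le-Cre* against *FVB/N* (7.94% of all tested genes), 4 in *P0-3.9GFPCre* against *FVB/N* (6.81%) and 2 in *Le-Cre* against *P0-3.9GFPCre* (7.88%). Exact permutation of 3 pools against 3 has 0.1 as its smallest two-sided p for a single gene. The labels do not say that pools came from separate litters, so p-values measure the spread between pools. The comparisons with *FVB/N* share the same 3 control pools.

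The pools of 2 lines did not overlap for a few of the genes, and these carried the differences described below. In *Le-Cre* lenses, *Igf2*, *Igf2r* and *Mest* were above every *FVB/N* pool (6.46% of all tested genes were) and *Meg3* was below every *FVB/N* pool (7.03% were). In *P0-3.9GFPCre* lenses, *Igf2* and *Mest* were above every *FVB/N* pool (6.02% were) and *Ndn* was below (5.94% were). The share of all tested genes that lay on the same side of *FVB/N* in both transgenic lines was not counted. Between the transgenic lines, *Dlk1* was higher in every *Le-Cre* pool (6.74% were), and 0 of the 10 were lower (7.37% were). The median log2 fold change over the 10 genes was 0.10, 0.09 and 0.05 in the 3 comparisons, beside 0.00 over all tested genes in each.

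**Figure D2:**
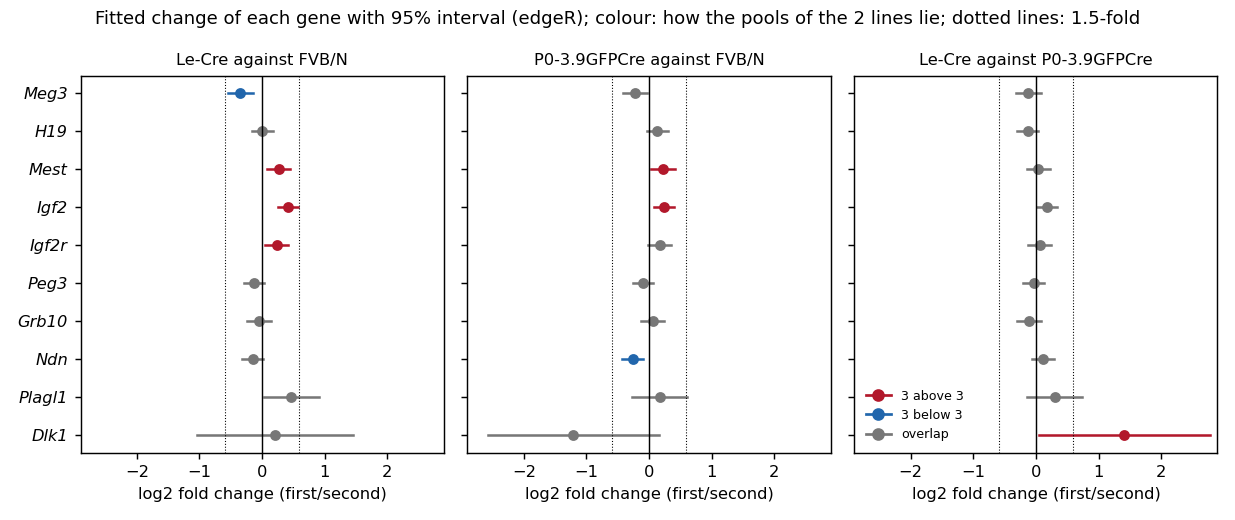
Fitted log2 fold change of each gene with its 95% interval in the 3 comparisons, red where the 3 pools of the first line all lie above those of the second, blue where all lie below, and gray where they overlap. *Igf2* in *Le-Cre* against *FVB/N* is farthest from 0 relative to its interval (0.25 to 0.57), and the *Dlk1* intervals are the widest.

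*Igf2* encodes the fetal growth factor IGF2, which signals through the IGF1 and insulin receptors. Its normalized counts were 110.3, 109 and 113 CPM in the *FVB/N* pools, 145, 127 and 120.04 CPM in *P0-3.9GFPCre* and 148, 153 and 142 CPM in *Le-Cre*. Every transgenic pool was thus above every *FVB/N* pool, and the *FVB/N* pools lay close together. In *Le-Cre* the mean was 148 ± 5.51 CPM against 111 ± 1.83 CPM in *FVB/N* (SD, n = 3 pools), a fold of 1.33. On the log2 scale this was 0.41 (standard error 0.07, adjusted p = 0.0965 by edgeR). Its 95% interval, from 1.19-fold to 1.49-fold, ended below the 1.5-fold cutoff. Adjusted p ranged from 0.000102 with DESeq2's Wald test to 0.662 with limma on log2(TPM + 1), while the log2 fold change stayed between 0.39 and 0.51 under all 19 alternatives. With Y-linked expression in the model it was 0.51 (adjusted p = 0.660 by edgeR).

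In *P0-3.9GFPCre* the *Igf2* difference from *FVB/N* was 0.24 on the log2 scale (standard error 0.07, adjusted p = 0.627 by edgeR). *Le-Cre* pools overlapped *P0-3.9GFPCre* pools, with a log2 fold change of 0.18 (95% interval 0.02 to 0.33, adjusted p = 0.577 by edgeR). *Igf2os*, which is transcribed against *Igf2*, was at 0.03 to 0.24 TPM, and *Ins2*, the other gene next to *Igf2*, was listed at 0 in all 9 pools. In GENCODE M21, 62.0% of the 51-base sequences of *Igf2* also belong to other transcripts, chiefly a read-through transcript (*Gm49394*) that the authors' tables do not list. Reads of such a transcript would have been counted as *Igf2*.

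*H19*, the maternally expressed noncoding RNA that shares enhancers with *Igf2*, overlapped between all lines in CPM. *H19* was at 314, 335 and 351 CPM in *FVB/N*, 397, 331 and 368 CPM in *P0-3.9GFPCre* and 332, 349 and 319 CPM in *Le-Cre*. The *Le-Cre* and *FVB/N* pools overlapped almost completely, and their means were 333 ± 15.1 and 333 ± 18.6 CPM (SD, n = 3 pools). The log2 fold change was 0.00, with a 95% interval of -0.17 to 0.17 by edgeR, and in *P0-3.9GFPCre* it was 0.13 (interval -0.03 to 0.30). Per length the picture for *P0-3.9GFPCre* differed, as RSEM's effective length for *H19* varied between 1362 and 1638 bases. In TPM the *P0-3.9GFPCre* pools (294, 264 and 269) were all above the *FVB/N* pools (227, 227 and 217), by 0.30 on the log2(TPM + 1) scale.

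The ratio of *Igf2* to *H19* expected counts, which needs no scaling between libraries, was computed after these values were seen. It was 0.351, 0.326 and 0.322 in the *FVB/N* pools, 0.365, 0.385 and 0.326 in *P0-3.9GFPCre* and 0.445, 0.438 and 0.445 in *Le-Cre*. The 3 *Le-Cre* pools stood above all 6 others and close together, and the other lines overlapped. Over the 9 pools, *H19* and *Igf2* had a Pearson r of 0.23 (log2 CPM, exact permutation p = 0.55, adjusted p = 0.707 over 45 pairs of the 10 genes) and a Spearman rho of 0.18 (exact p = 0.644). After subtracting the line means r was 0.61, and without the 2 pools farthest from the *H19* median it was 0.13. On the log2(TPM + 1) scale r was 0.72 (adjusted p = 0.170 by exact permutation), so the value depended on the scale.

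*Igf2r* encodes the receptor that takes IGF2 to the lysosome and thereby lowers its supply. It was at 384, 350.5 and 344 CPM in *FVB/N*, 407, 357 and 451 CPM in *P0-3.9GFPCre* and 406, 429 and 429.8 CPM in *Le-Cre*. All *Le-Cre* pools were above all *FVB/N* pools, and the *P0-3.9GFPCre* pools spanned both. The *Le-Cre* difference from *FVB/N* was 0.23 on the log2 scale (standard error 0.08, adjusted p = 0.519 by edgeR), and in *P0-3.9GFPCre* against *FVB/N* it was 0.17 (adjusted p = 0.741 by edgeR). The ligand and this receptor had r = 0.60 over the 9 pools (exact permutation p = 0.0926, adjusted p = 0.344; rho 0.53, exact p = 0.148) and 0.42 without the 2 pools farthest from the *Igf2* median, but -0.23 within lines, so that the pooled value rested on the differences between lines. *Airn*, the paternally expressed RNA that overlaps *Igf2r* on the opposite strand, was at 4.42, 4.95 and 4.87 CPM in *FVB/N*. It was at 5.14, 5.04 and 6.06 CPM in *P0-3.9GFPCre* and 5.76, 6.12 and 6.74 CPM in *Le-Cre*, all above every *FVB/N* pool. Such a place was held by 6.46% of all tested genes in *Le-Cre* and by 6.02% in *P0-3.9GFPCre*, and the share in both was not counted. The kit does not mark strand, so reads from the overlap of *Airn* and *Igf2r* cannot be told apart. *Slc22a2*, of the same domain, was at 1.12 to 1.66 TPM, and *Slc22a3* at 0 to 0.01 TPM.

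*Grb10* encodes an adapter that binds the activated insulin and IGF1 receptors and damps their signal. It was at 109, 108 and 98.6 CPM in *FVB/N*, 108, 110.5 and 110.3 CPM in *P0-3.9GFPCre* and 101, 115 and 89.4 CPM in *Le-Cre*, and all lines overlapped. The log2 fold change was -0.05 in *Le-Cre* (95% interval -0.24 to 0.14) and 0.06 in *P0-3.9GFPCre* (interval -0.13 to 0.25), both against *FVB/N* by edgeR.

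*Mest*, which encodes a protein of the alpha/beta hydrolase family, lay higher in every transgenic pool in CPM. It was at 157, 153 and 145 CPM in *FVB/N*, 186, 171 and 173 CPM in *P0-3.9GFPCre* and 175, 207 and 163 CPM in *Le-Cre*. No transgenic pool reached down to the *FVB/N* pools in CPM, although *Le-Cre* replicate 3 came close to them. In TPM, *Le-Cre* replicate 3 (65.67) lay among the *FVB/N* pools (65.95, 67.42 and 58.73). Against *FVB/N*, *Mest* differed by 0.26 on the log2 scale in *Le-Cre* (standard error 0.09, adjusted p = 0.451) and by 0.22 in *P0-3.9GFPCre* (standard error 0.09, adjusted p = 0.662), by edgeR. Without *Le-Cre* replicate 2 the *Le-Cre* value was 0.16. *Copg2*, which overlaps the end of *Mest* on the opposite strand and shares 21.2% of the 51-base sequences of *Mest*, lay between 63.6 and 73.8 CPM with all lines overlapping (log2 fold change 0.04 against *FVB/N* in either line). *Klf14*, the third gene of this domain, was at 0 to 0.03 TPM.

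*Ndn* encodes necdin, which restrains division of neurons and other cells. It was at 71.5, 71.1 and 79.0 CPM in *FVB/N*, 61.3, 61.1 and 62.4 CPM in *P0-3.9GFPCre* and 68.4, 59.2 and 71.8 CPM in *Le-Cre*. The *P0-3.9GFPCre* pools were all below the *FVB/N* pools, and the *Le-Cre* pools spanned both. Against *FVB/N*, the log2 value was -0.26 in *P0-3.9GFPCre* (standard error 0.08, adjusted p = 0.621) and -0.15 in *Le-Cre* (adjusted p = 0.699), by edgeR. *Mkrn3*, of the same domain, was at 1.58 to 3.01 TPM, *Peg12* at 0.09 to 0.48 TPM and *Magel2* at 0 to 0.02 TPM.

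**Figure D3:**
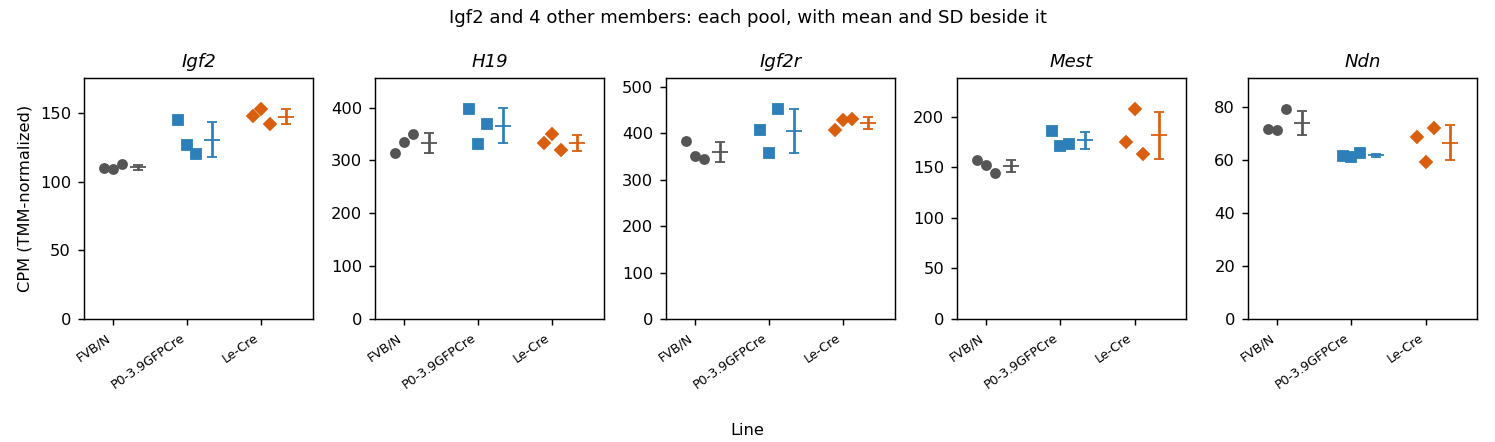
TMM-normalized CPM of *Igf2*, *H19*, *Igf2r*, *Mest* and *Ndn* in each pool, with the mean and SD of the 3 pools of a line beside the points. The *Le-Cre* pools of *Igf2* (142 to 153 CPM) clear the *FVB/N* pools (109 to 113 CPM), whereas those of *H19* lie among them.

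*Meg3*, a long noncoding RNA, is transcribed from the maternal chromosome in tandem with *Rian* and *Mirg*, which host small nucleolar RNAs and microRNAs. *Meg3* was at 348, 375 and 411 CPM in *FVB/N*, 327, 352 and 293 CPM in *P0-3.9GFPCre* and 271, 298 and 324 CPM in *Le-Cre*. The *Le-Cre* pools were all below the *FVB/N* pools, and 1 *P0-3.9GFPCre* pool lay among the latter. In *Le-Cre* the mean was 298 ± 26.6 CPM against 378 ± 31.3 CPM (SD, n = 3 pools), or -0.35 on the log2 scale (standard error 0.09, adjusted p = 0.307 by edgeR). In *P0-3.9GFPCre* it was -0.22 (adjusted p = 0.674 by edgeR). DESeq2's Wald test gave an adjusted p of 0.0220 for *Le-Cre*, within a range of 0.0172 to 0.960 over 19 alternatives. With Y-linked expression in the model the *Le-Cre* value was -0.26 (adjusted p = 0.960 by edgeR).

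The downstream transcripts of this domain lay lower in *Le-Cre* too, without passing the test. *Rian* was at 179, 188 and 233.5 CPM in *FVB/N*, 161, 162 and 129 CPM in *P0-3.9GFPCre* and 145, 159 and 142 CPM in *Le-Cre*, so that every transgenic pool was below every *FVB/N* pool. Of all tested genes, 7.03% lay below every *FVB/N* pool in *Le-Cre* and 5.94% in *P0-3.9GFPCre*, and the share in both was not counted. The log2 fold change of *Rian* against *FVB/N* was -0.41 in *P0-3.9GFPCre* (adjusted p = 0.590) and -0.43 in *Le-Cre* (adjusted p = 0.307), by edgeR. *Mirg* was at 4.73, 7.10 and 5.53 CPM in *FVB/N*, 5.96, 4.17 and 3.90 CPM in *P0-3.9GFPCre* and 2.63, 3.86 and 4.43 CPM in *Le-Cre*. All *Le-Cre* pools of *Mirg* were below those of *FVB/N*, with a log2 fold change of -0.67 (adjusted p = 0.519 by edgeR). The ratio of *Rian* to *Meg3* expected counts was 0.514, 0.501 and 0.569 in *FVB/N* and 0.493, 0.462 and 0.442 in *P0-3.9GFPCre*, without overlap. In *Le-Cre* it was 0.537, 0.533 and 0.439 and overlapped both. Transcripts of 1 domain are not independent of each other, and *Meg3* shares 10.4% of its 51-base sequences with other genes, chiefly *Gm26906*, which was at 0 to 1.64 TPM.

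*Dlk1*, the paternally expressed gene at the other end of this domain, encodes a transmembrane relative of the Notch ligands. It had 7, 17 and 12 expected counts in *FVB/N*, 3, 6 and 5 in *P0-3.9GFPCre* and 9, 14 and 19 in *Le-Cre*. The *P0-3.9GFPCre* pools had fewer counts than any other pool. On the CPM scale they overlapped *FVB/N* (log2 fold change -1.21, 95% interval -2.58 to 0.16, adjusted p = 0.763) and lay below *Le-Cre* (log2 fold change 1.41 for *Le-Cre* against *P0-3.9GFPCre*, interval 0.05 to 2.78, adjusted p = 0.613), by edgeR. The latter value ran from 0.47 to 1.71 over 18 alternatives. These intervals span several-fold, so at this depth smaller differences in *Dlk1* were not detectable. *Dlk1* and *Meg3* had r = 0.25 over the 9 pools (exact permutation p = 0.507, adjusted p = 0.707; rho 0.17, exact p = 0.678), 0.61 within lines and 0.18 without the 2 pools farthest from the *Meg3* median. *Rtl1* and *Dio3*, the other paternally expressed genes there, were at 0.05 to 0.15 TPM and 0.02 to 0.37 TPM, so the protein-coding genes of the domain stayed at or below 0.76 TPM while *Meg3* and *Rian* stayed above 100 TPM.

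**Figure D4:**
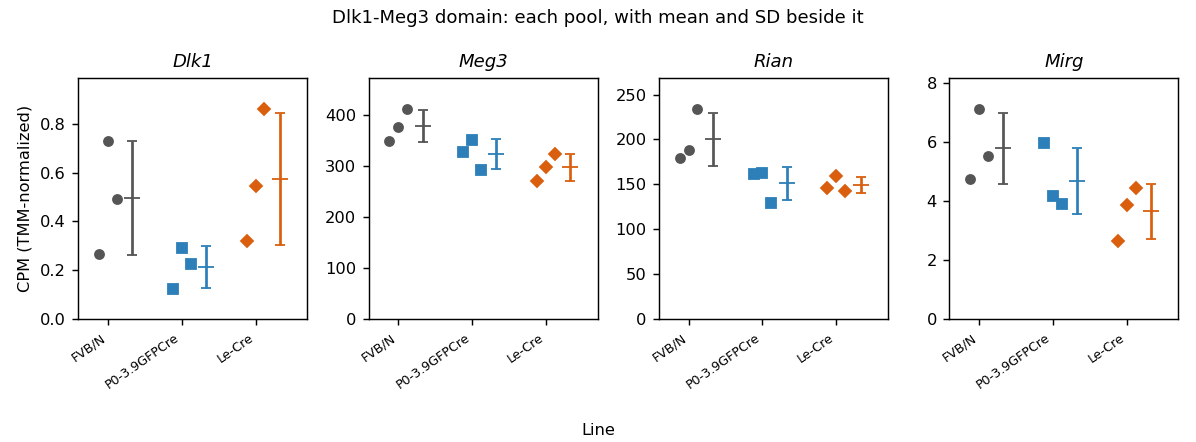
TMM-normalized CPM of *Dlk1*, *Meg3*, *Rian* and *Mirg* in each pool, with the mean and SD of the 3 pools of a line beside the points and an axis of its own for each gene. *Rian* is lower in all 6 transgenic pools than in *FVB/N*, *Meg3* and *Mirg* in the 3 *Le-Cre* pools, and *Dlk1* stays at or below 0.859 CPM.

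The set holds a pair of transcription factors, of which *Peg3* was the more abundant. *Peg3*, a large zinc finger protein, was at 217, 227 and 251 CPM in *FVB/N*, 227, 224 and 199.8 CPM in *P0-3.9GFPCre* and 211, 221 and 202 CPM in *Le-Cre*. All lines overlapped, and the log2 fold change against *FVB/N* was -0.13 in *Le-Cre* (95% interval -0.30 to 0.03) and -0.10 in *P0-3.9GFPCre* (interval -0.26 to 0.07), by edgeR. Its neighbor *Zim1* was at 3.09 to 4.13 TPM and *Usp29* at 1.33 to 2.61 TPM. *Plagl1*, a zinc finger protein known to activate *Igf2* and *H19* in other tissues, was at 8.77, 10.8 and 7.58 CPM in *FVB/N*, 7.98, 11.3 and 11.3 CPM in *P0-3.9GFPCre* and 12.3, 15.6 and 9.59 CPM in *Le-Cre*. *Le-Cre* replicate 3 lay within the *FVB/N* pools, and the log2 fold change in *Le-Cre* was 0.47 (95% interval 0.03 to 0.91, adjusted p = 0.601 by edgeR).

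Pools of a line differed least in *Igf2* and most in *Dlk1*. The SD of log2 CPM between pools of a line was 0.09 for *Igf2*, 0.09 for *Peg3*, 0.10 for *H19* and *Ndn*, 0.11 for *Igf2r* and *Grb10*, 0.12 for *Mest* and 0.13 for *Meg3*, below the median of 0.18 over all tested genes. It was 0.30 for *Plagl1* and 0.56 for *Dlk1*, which averaged 256 and 10.2 counts per pool. Counting error alone gives an SD of 0.09 for *Plagl1* and 0.45 for *Dlk1*.

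Among 41 other imprinted genes, 32 were tested and 0 were called in any comparison. In *Le-Cre* against *FVB/N*, 2 were higher and 4 lower at an unadjusted p under 0.05, with a median log2 fold change of -0.01, and in *P0-3.9GFPCre* against *FVB/N* 2 were higher and 2 lower (median 0.01). The direct comparison of the transgenic lines had 0 higher and 3 lower in *Le-Cre* (median -0.02). Of all tested genes, 7.94%, 6.81% and 7.88% stood at this threshold in the 3 comparisons, both directions together. The most abundant were *Cdkn1c*, the cell cycle inhibitor p57, at 1123 to 1572 TPM, *Gnas*, a G protein subunit, at 1150 to 1380 TPM, *Snurf* at 157 to 234 TPM, *Rian* at 105 to 180 TPM and *H13* at 59.7 to 72.0 TPM. *Nnat*, which encodes a small membrane protein, was at 19.3, 20.9 and 25.9 CPM in *FVB/N* and 16.5, 12.3 and 12.2 CPM in *Le-Cre*. The difference, -0.69 on the log2 scale, had the smallest p of the list (adjusted p = 0.298 by edgeR). Of 19 alternatives, 2 called *Nnat*, with an adjusted p of 0.00134 without the filter on low counts and of 0.0256 with DESeq2's Wald test. Against *P0-3.9GFPCre* it was -0.46 (adjusted p = 0.531 by edgeR). *Cdkn1c* was at 1208, 1196 and 1157 CPM in *FVB/N*, 1242, 1167 and 1212 CPM in *P0-3.9GFPCre* and 1038, 895 and 1089 CPM in *Le-Cre*. The *Le-Cre* pools of *Cdkn1c* were below all others, with a log2 fold change of -0.24 against *FVB/N* (adjusted p = 0.439) and -0.26 against *P0-3.9GFPCre* (adjusted p = 0.429), by edgeR. In *Le-Cre*, 7.03% of all tested genes lay below every *FVB/N* pool and 7.37% below every *P0-3.9GFPCre* pool. In *P0-3.9GFPCre* against *FVB/N*, *Kcnq1* had the second smallest p after *Rian* (log2 fold change -1.68, adjusted p = 0.662 by edgeR) at 9 to 20 expected counts in *FVB/N* and 2.06 to 5.14 in *P0-3.9GFPCre*.

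The insulin-like growth factor pathway surrounding *Igf2* was measured through 42 genes, of which 36 were tested and 0 were called. Of the ligands measured, *Igf1* was at 0.05 to 0.65 TPM and *Ins2* was listed at 0, far below *Igf2* at 51.8 to 89.6 TPM. The signaling receptors *Igf1r* (12.9 to 19.7 TPM) and *Insr* (8.21 to 11.8 TPM) overlapped between lines in CPM. Their log2 fold changes were 0.06 and 0.00 in *Le-Cre* against *FVB/N* and 0.06 and 0.00 in *P0-3.9GFPCre* against *FVB/N*. In TPM, *Igf1r* was at 16.1 to 19.7 in *Le-Cre*, above all *FVB/N* pools at 12.9 to 14.4. The most abundant genes were the binding proteins *Igfbp7* (272 to 320.2 TPM) and *Igfbp5* (41.7 to 68.2 TPM), the kinase *Akt1* (91.7 to 129.9 TPM) and the adapters *Shc1* (87.3 to 110.1 TPM) and *Grb2* (34.0 to 48.2 TPM). At an unadjusted p under 0.05, 3 were higher and 3 lower in *Le-Cre* against *FVB/N*, 0 and 4 in *P0-3.9GFPCre* against *FVB/N*, and 5 and 1 in *Le-Cre* against *P0-3.9GFPCre*, with medians of -0.04, -0.04 and 0.01, beside 7.94%, 6.81% and 7.88% of all tested genes.

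Among the named members of this pathway, *Htra1*, a secreted protease that cleaves IGF binding proteins, was at 26.1, 23.0 and 25.5 CPM in *FVB/N*, 21.7, 20.4 and 28.01 CPM in *P0-3.9GFPCre* and 36.2, 33.3 and 33.2 CPM in *Le-Cre*. Its *Le-Cre* pools were above all others, with log2 fold changes of 0.46 against *FVB/N* (adjusted p = 0.280) and 0.55 against *P0-3.9GFPCre* (adjusted p = 0.292), by edgeR. In *Le-Cre*, 6.46% of all tested genes lay above every *FVB/N* pool and 6.74% above every *P0-3.9GFPCre* pool. *Igfbp5* was at 323, 343 and 306 CPM in *FVB/N* and 226, 273 and 219.9 CPM in *Le-Cre*, a difference of -0.43 on the log2 scale (adjusted p = 0.281 by edgeR). *Irs1*, which links both receptors to PI3 kinase, was lower than in *FVB/N* in all 6 transgenic pools, at 150.1, 150.8 and 158.7 CPM in *FVB/N*, 136.5, 123.6 and 127 CPM in *P0-3.9GFPCre* and 135, 131 and 133 CPM in *Le-Cre*. Such a place below every *FVB/N* pool was held by 7.03% of all tested genes in *Le-Cre* and by 5.94% in *P0-3.9GFPCre*. *Pappa*, another protease of IGF binding proteins, had the smallest p of the list in *P0-3.9GFPCre* against *FVB/N* (log2 fold change -0.33, adjusted p = 0.590 by edgeR), and *Irs1* the next (-0.25, with the same adjusted p). *Irs2* had a log2 fold change of 0.25 in *Le-Cre* against *P0-3.9GFPCre* (adjusted p = 0.463 by edgeR).

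Of 14 genes that act on imprints or on DNA methylation, here called imprint maintenance genes, 12 were tested and 0 were called. *Trim28*, the corepressor recruited to imprinted control regions, was the most abundant at 106 to 132 TPM, and *Ctcf* (16.3 to 18.6 TPM), *Smchd1* (8.67 to 12.03 TPM) and *Tet3* (9.66 to 11.8 TPM) followed *Dnmt3a*. *Dnmt3a*, a methyltransferase that sets methylation anew, was at 185, 224 and 232 CPM in *FVB/N*, 179, 185 and 149.6 CPM in *P0-3.9GFPCre* and 157, 168 and 157 CPM in *Le-Cre*. The *Le-Cre* pools of *Dnmt3a* were below all *FVB/N* pools (7.03% of all tested genes were), with a log2 fold change of -0.41 (adjusted p = 0.266 by edgeR). *P0-3.9GFPCre* overlapped *FVB/N* (-0.32, adjusted p = 0.632 by edgeR). The others with the smallest p were *Tet1* in *Le-Cre* against *FVB/N* (log2 fold change -0.18, adjusted p = 0.734), *Tet3* in *P0-3.9GFPCre* against *FVB/N* (-0.20, adjusted p = 0.651) and *Tet2* (0.22, adjusted p = 0.682) and *Uhrf1* (-0.18, adjusted p = 0.690) in *Le-Cre* against *P0-3.9GFPCre*, all by edgeR. Over the list, 0 genes were higher and 1 lower at an unadjusted p under 0.05 in *Le-Cre* against *FVB/N*, 1 and 2 in *P0-3.9GFPCre* against *FVB/N*, and 0 and 0 between the transgenic lines, with medians of -0.03, -0.02 and -0.03, beside the same 7.94%, 6.81% and 7.88% of all tested genes.

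**Figure D5:**
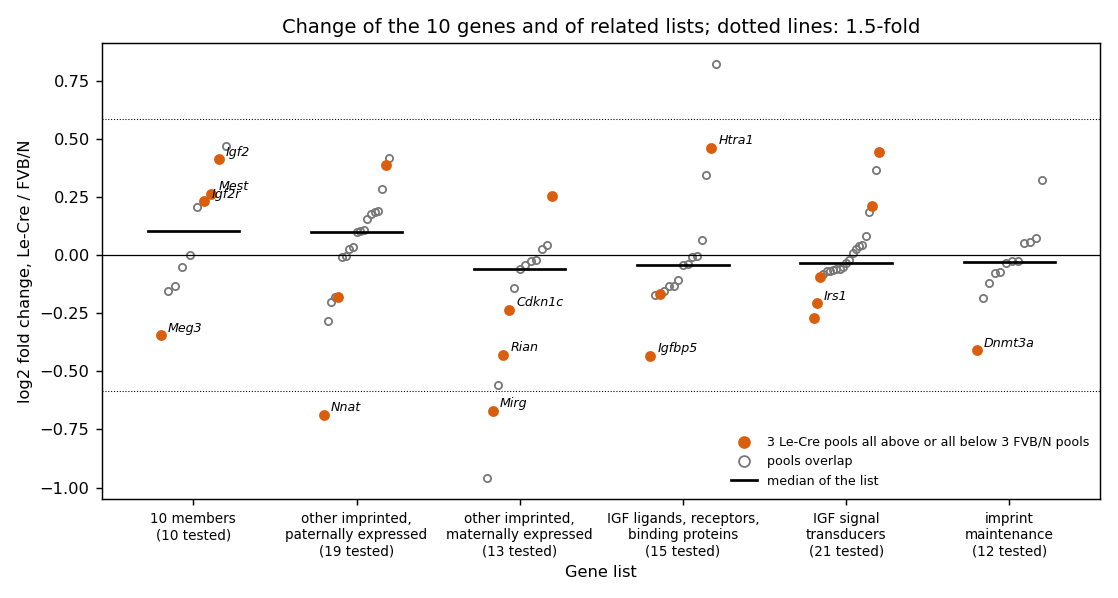
Log2 fold change in *Le-Cre* against *FVB/N* of the 10 genes and of the tested genes of 5 related lists, filled where the pools of the lines do not overlap, with a bar at each list's median. *Igf2* is near the top of the 10 genes and *Meg3* at their lower end, *Rian* and *Mirg* lie low among the maternally expressed genes, and the medians stay between -0.06 and 0.10.

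Markers of lens and other cells were set beside these differences. Of the 6 lens epithelium markers, 1 had a positive log2 fold change against *FVB/N* in *Le-Cre* (median -0.17) and 2 in *P0-3.9GFPCre* (median -0.07), and 0 were called. The medians over all tested genes were -0.004 and 2.4e-05. The pools of 2 epithelium markers, *Cdh1* and *Pdgfra*, were all below *FVB/N* in each transgenic line. Of all tested genes, 7.03% were below in *Le-Cre* and 5.94% in *P0-3.9GFPCre*. *Pdgfra* had the smallest adjusted p of these markers (-0.40, adjusted p = 0.169 by edgeR in *Le-Cre*, and -0.28, adjusted p = 0.590 in *P0-3.9GFPCre*). Of the 10 fiber markers, 2 were positive in *Le-Cre* (median -0.07) and 1 in *P0-3.9GFPCre* (median -0.08), and 0 were called. All pools were below *FVB/N* for 3 fiber markers in *Le-Cre* (7.03% of all tested genes were) and for 3 in *P0-3.9GFPCre* (5.94% were). *Dnase2b* and *Gja3* were among them in each transgenic line. *Dnase2b* was at -0.37 in *Le-Cre* (adjusted p = 0.356 by edgeR) and -0.45 in *P0-3.9GFPCre* (adjusted p = 0.590 by edgeR). *Crygs*, another fiber marker, had a higher mean in *Le-Cre* than in *FVB/N* (4333 against 3534 CPM), with overlapping pools. Its mean in *P0-3.9GFPCre* was 3214 CPM. The summed epithelial markers were at 231.5 to 252 TPM in *FVB/N*, 229 to 252 TPM in *P0-3.9GFPCre* and 204 to 231 TPM in *Le-Cre*. Each *Le-Cre* pool was below the lowest *FVB/N* pool, narrowly at 229.67 and 231.28 TPM and more clearly at 203.97 TPM in replicate 3. Endothelial and mesenchymal cells, which often express *Igf2*, *H19* and *Dlk1*, had summed markers of 58.2 to 63.6 TPM and 2.83 to 4.56 TPM in *FVB/N* and of 53.7 to 65.3 TPM and 2.53 to 3.70 TPM in *Le-Cre*. The part of any of these cells in the differences above was not tested.

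The genes whose log2 CPM followed each of the 10 most closely over the 9 pools are named next. For *Igf2* they were *Perp* (r = 0.97), *Gas2l3* (0.95) and *Gm27042* (0.94), and for *H19* they were *Hnrnpab* (0.93), *Itpk1* (0.93) and *Decr1* (0.92), so neither of the neighbors was on the other's list. *Igf2r* was closest to *Stambpl1* (0.96), *Dnajb1* (0.95) and *Ptgfr* (0.94), and *Meg3* to *Uhrf2* (0.97), *Mpped2* (0.95) and *Zfp40* (0.95). *Peg3* was followed by *Zfp760* (0.95), *9430020K01Rik* (0.93) and *Rian* (0.92), the last being the imprinted RNA described above. *Ndn* went with *Rragb* (0.98), *Gm15063* (0.96) and *Igfbp7* (0.94), and *Mest* with *Adgrl2* (0.94), *Fosl2* (0.92) and *Crtac1* (0.90). *Grb10* was closest to *Clip1* (0.98), *Gm9392* (0.95) and *Srsf12* (0.95), *Plagl1* to *Srgap3* (0.93), *Vcl* (0.92) and *Bbs9* (0.92), and *Dlk1* to *Gm43597* (0.94), *Trub2* (0.93) and *Acpp* (0.91). Each r is the highest among 15557 genes over only 9 pools that share 3 lines, and is given as a description.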

How the data were processed

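RNA-Seq was performed on polyadenylated RNA from whole newborn lenses (9 pools). Per the labels and the study's methods, reads were trimmed with Trimmomatic 0.36, mapped to GRCm38 with GSNAP and quantified with RSEM 1.3.0. The authors deposited RSEM expected counts, which are estimates that need not be whole numbers. They also deposited TPM, which RSEM scales for effective length and depth. The gene annotation is not given in the sources used here, so coordinates and shared sequences were taken from GENCODE M21. The description of 1 *FVB/N* pool carries another number than its title, and the title was used.

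Expected counts were rounded and tested in R 4.3.3 with edgeR 4.0.16 (TMM, filterByExpr, 1 coefficient per line over 9 pools, glmQLFit, glmQLFTest, Benjamini-Hochberg over 15557 genes). The standard error was obtained by dividing the size of the log2 fold change by the square root of F, and intervals are 95%. Levels between genes are compared in TPM and differences between lines in CPM. Correlations used exact permutation over pools (SciPy 1.17.1). Alternatives included DESeq2 1.42.0, limma 3.58.1 on log2(TPM + 1), other normalizations and filters, covariates and leaving out each pool.

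The 10 genes and all lists were chosen with earlier results of these data known. From the lists of other imprinted, IGF pathway and imprint maintenance genes, the text names every gene called, the 5 with the highest mean TPM and the 2 with the smallest p in each comparison. Neighbors in the same domain are given by level, with the 3 genes most like each of the 10. Other values of *Airn*, *Rian*, *Mirg* and *Copg2*, and *Igf2os*, *Gm26906*, *Igf1*, *Igf1r*, *Insr*, *Pdgfra*, *Cdh1*, *Dnase2b*, *Gja3*, *Crygs* and the count ratios, were added after their values were seen.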

Additional observations from a re-analysis of the deposited data

How the results depend on the processing

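The 19 alternatives gave 568 fold changes for the 10 genes in the 3 comparisons, *Dlk1* having none in 2 fits of only the compared pools, where it did not pass the filter. None became a call, and 555 kept their direction. The 13 that turned were as follows, and the cause was not tested. *H19* in *Le-Cre* against *FVB/N* was -8.5e-05 without crystallin genes, -0.00279 without the filter, and from -0.0385 (without *FVB/N* replicate 1, with -0.0311 without *Le-Cre* replicate 2) to 0.0411 when 1 pool was left out. *Dlk1* there ranged from -0.191 (without *Le-Cre* replicate 3, with -0.0948 without *FVB/N* replicate 1) to 0.593. *Grb10* there was 0.0660 with the Y-linked covariate and from -0.140 to 0.0340 (without *Le-Cre* replicate 3) when 1 pool was left out. *Grb10* in *P0-3.9GFPCre* against *FVB/N* was -0.0287 with limma on log2(TPM + 1). In *Le-Cre* against *P0-3.9GFPCre*, *Igf2r* ranged from -0.0255 (without *P0-3.9GFPCre* replicate 2) to 0.147, *Peg3* was 0.0137 with the Y-linked covariate, and *Mest* was -0.0135 with limma and from -0.0647 (without *Le-Cre* replicate 2) to 0.112 when 1 pool was left out.

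The number of all tested genes called in *Le-Cre* against *FVB/N* (10) was 131 without the filter, 5 with a mean of at least 10 counts, 2 with the replicate block, 0 with the Y-linked covariate, 49 with DESeq2, 1 with limma, and 0 to 10 when 1 pool was left out, being 0 or 1 without any *FVB/N* or *Le-Cre* pool. In *P0-3.9GFPCre* against *FVB/N* (0) it was 93 without the filter, 3 with DESeq2, and 0 to 14 when 1 pool was left out (14 without *FVB/N* replicate 2, 3 with *P0-3.9GFPCre* replicate 2 left out, and 1 with *FVB/N* replicate 3 left out). In *Le-Cre* against *P0-3.9GFPCre* (0) it was 123 without the filter, 31 with only the compared pools, 35 with DESeq2, 1 with limma, and 0 to 18 when 1 pool was left out (18 without *FVB/N* replicate 2). Of the other imprinted genes, 1 (*Nnat*) was called without the filter and with DESeq2 in *Le-Cre* against *FVB/N*. The correlation of *H19* with *Igf2* ranged from -0.0167 (without *P0-3.9GFPCre* replicate 1) to 0.376 when 1 pool was left out and was 0.612 within lines and 0.723 on log2(TPM + 1), that of *Igf2* with *Igf2r* was -0.229 within lines, and that of *Meg3* with *Dlk1* was -0.0696 on log2(TPM + 1).

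Pools with the same replicate number did not deviate together on average over all tested genes (mean residual correlation 0.0299 over 9 pairs, -0.0149 over 18 pairs with different numbers). Such a mean cannot show whether pools of the same number shared a litter or batch that affected some genes. With the replicate block, *Igf2* in *Le-Cre* against *FVB/N* stayed at 0.41 on the log2 scale (adjusted p = 0.172 by edgeR), and none of the 30 values for the 10 genes changed direction. Its adjusted p was under 0.05 with DESeq2 (0.000102), without the filter (0.00216) and without *P0-3.9GFPCre* replicate 1 (0.0492). Low counts limit *Dlk1*.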
